A study of Homo sapiens with 6 samples.

Results

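The ZNF genes of the human genome encode zinc finger proteins, and the 97 of them described here were those at or above a set level in 786-O cells. A gene was included when it was protein-coding, its symbol was ZNF followed by digits and at most 1 letter, and its FPKM averaged at least 2 over all 6 libraries. FPKM gives the fragments of a gene for its length and for the mapped fragments of the library. Of 58395 genes in the deposited table, 510 were protein-coding ZNF genes by name, and 97 of these reached that level. Among the other 413, 60 averaged between 1 and 2 FPKM and 353 were below 1 FPKM, 42 of which were listed at 0 in every library. The genes were thus chosen by their mean level over both groups, not by the difference between groups. The members nearest the limit were ZNF444, ZNF692 and ZNF513, with means of 2.00, 2.02 and 2.04 FPKM, and ZNF639, ZNF251 and ZNF416 lay just outside it with 1.98, 1.95 and 1.90 FPKM.

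RNA was sequenced from 786-O, a human clear cell renal carcinoma line that lacks functional VHL. The sgPLOD2 group held 3 libraries of cells in which CRISPR/Cas9 had been used against PLOD2, a lysyl hydroxylase of collagen, and the sgControl group held 3 libraries of cells with a control guide. The series asked how loss of PLOD2 alters gene expression in these cells. The sources used here do not say whether the cells were clones or pools, and nothing says that the 3 replicates came from different cultures. The p-values therefore measure the spread between libraries, which may be only technical.

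PLOD2 mRNA had 5.98, 10.1 and 6.64 FPKM in sgPLOD2, against 26.8, 25.7 and 21.5 FPKM in sgControl, with no overlap. Its log2 fold change was -1.61 ± 0.18 (SE; limma, adjusted p = 0.000509), and an exact two-sided permutation test gave p = 0.1, the smallest that 3 libraries against 3 allow. HIF1A averaged 37.7 ± 1.84 FPKM in sgPLOD2 and 0.420 ± 0.115 FPKM in sgControl (SD, n = 3 each). Whether the groups hold different cell populations was not tested, and such a difference and an effect of PLOD2 loss cannot be told apart. Fewer cells with a transcript and less of it per cell cannot be told apart either. All 6 renal carcinoma line markers (PAX8, PAX2, EPAS1, CA12, CDH6 and VIM) averaged at least 1 FPKM. Their summed levels were 922 to 952 FPKM in sgPLOD2 and 1067 to 1418 FPKM in sgControl. Most of each sum was VIM, which averaged 867 FPKM in sgPLOD2 and 1120 FPKM in sgControl. The markers did not move together. At a limma adjusted p under 0.05, 3 were lower in sgPLOD2, with log2 fold changes of -1.63 (CA12), -0.36 (VIM) and -0.33 (PAX2). EPAS1 (0.98) and CDH6 (0.61) were higher, and PAX8 did not pass (-0.19, adjusted p = 0.387). The 8 markers of other cell types summed to 2.93 to 3.24 FPKM in sgPLOD2 and 0.738 to 0.998 FPKM in sgControl, mostly from COL1A1 in sgPLOD2, with CD3E and DCN listed at 0 in every library. Library totals were 229485 to 238801 FPKM in sgPLOD2 and 243422 to 268612 FPKM in sgControl, and mitochondrial transcripts took 6.01% to 6.72% of the total in sgPLOD2 and 6.96% to 12.9% in sgControl, the highest being sgControl replicate 1. The part of these differences in the results below was not tested.

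Most ZNF proteins carry a row of C2H2 zinc fingers, short loops held by a zinc ion between a pair of cysteines and a pair of histidines, each of which can read a few bases of DNA. Many also carry a KRAB domain, which binds the corepressor TRIM28 (KAP1). TRIM28 in turn brings SETDB1, a histone H3 lysine 9 methyltransferase, HP1 proteins and the NuRD complex, and the family is best known for silencing transposable elements. Its genes arose by repeated duplication and lie in clusters, above all on chromosome 19. The name ZNF is given by sequence, and several of its bearers work in RNA processing, ribosome assembly or the cytoskeleton.

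The expressed ZNF genes were not a cross-section of the family. A KRAB-like stretch was found in the translated sequence of 25 of the 97 (25.8%), against 308 of the 413 below the limit (74.6%). Chromosome 19 held 25 of the 97 (25.8%), against 222 of the 413 (53.8%). The median number of C2H2 fingers was 7 (range 0 to 31), against 11 (range 0 to 36) in the genes below the limit. ZNF142, with 31 fingers, and ZNF646, with 30, were the longest arrays among the expressed genes. The pattern was absent from ZNF185, ZNF703, ZNF330 and ZNF503. Median GC content of the annotated transcripts was 56.4% in the expressed ZNF genes and 45.5% in those below the limit.

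Between the groups, 17 of the 97 genes were higher in sgPLOD2 (17.5%) and 27 were lower (27.8%), and 53 did not pass the test. The test was limma on log2(FPKM + 1) over the 10469 genes that averaged at least 1 FPKM, with a Benjamini-Hochberg adjusted p under 0.05. Of all genes tested, 29.5% were called higher and 23.5% lower, or 28.0% and 25.5% among those that averaged at least 2 FPKM. The median log2 fold change of the ZNF genes was -0.08, with a range of -2.48 to 0.78, and that of all genes tested was 0.06. The share of rises among the ZNF calls was 38.6%, and it depended on the scaling. With every library set to the same total, 22 were higher and 21 lower (51.2% of calls higher; 35.5% and 17.5% of all genes tested), and after quantile normalization 11 were higher and 37 lower (22.9%; 26.0% and 26.2% of all genes tested). The first of these rescalings also shifted the median of all genes to 0.16. Under each of 18 alternative settings, the ZNF median lay below the all-gene median, by 0.04 to 0.21 on the log2 scale. All 3 sgPLOD2 libraries lay above all sgControl libraries for 22 ZNF genes and below them for 32, and for 43 the groups overlapped. The shares of all genes tested that did not overlap were 34.7% with sgPLOD2 above and 28.0% with sgPLOD2 below. In the authors' deposited table, 15 of the 97 were higher and 31 lower at an adjusted p under 0.05, where 18.5% and 17.0% of all genes with an adjusted p were. Those 15 and 27 of those 31 were also called by limma, none in the opposite direction. The authors' shares are over 22870 genes, which include genes below the limit of 1 FPKM used for limma. They are therefore not shares at the level of the 97 ZNF genes.

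The direction of the calls differed with the level, in ZNF genes as in all genes tested. Of the 12 ZNF genes at 10 FPKM or more, 9 were lower in sgPLOD2 and 0 were higher, while of all genes tested at that level 32.7% were lower and 21.2% higher. That count of 9 was 3 once the part of the fold change that follows GC content and transcript length over all genes (the GC and length trend) was removed. At 5 to 10 FPKM, 5 of 26 ZNF genes were lower and 2 higher, against 22.5% lower and 29.1% higher among all genes tested. At 2 to 5 FPKM, 13 of 59 ZNF genes were lower and 15 higher, against 18.5% lower and 35.8% higher among all genes tested. The summed FPKM of all 97 genes was 552 to 584 in the sgPLOD2 libraries and 701 to 720 in the sgControl libraries. Since the limit was set on the mean of both groups, it admitted 11 genes only through their sgPLOD2 level and 9 only through their sgControl level. Of the 11, 8 were called higher: ZNF318, ZNF473, ZNF800, ZNF326, ZNF202, ZNF770, ZNF436 and ZNF134. Of the 9, 6 were called lower: ZNF185, ZNF513, ZNF783, ZNF692, ZNF653 and ZNF587B. Of the 77 genes at or above 2 FPKM in both groups, 9 were higher (11.7%) and 21 lower (27.3%). The shares of all genes with that limit in both groups were not counted. Among all genes tested with a mean of at least 2 FPKM, 28.0% were higher and 25.5% lower.

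**Figure D1:**
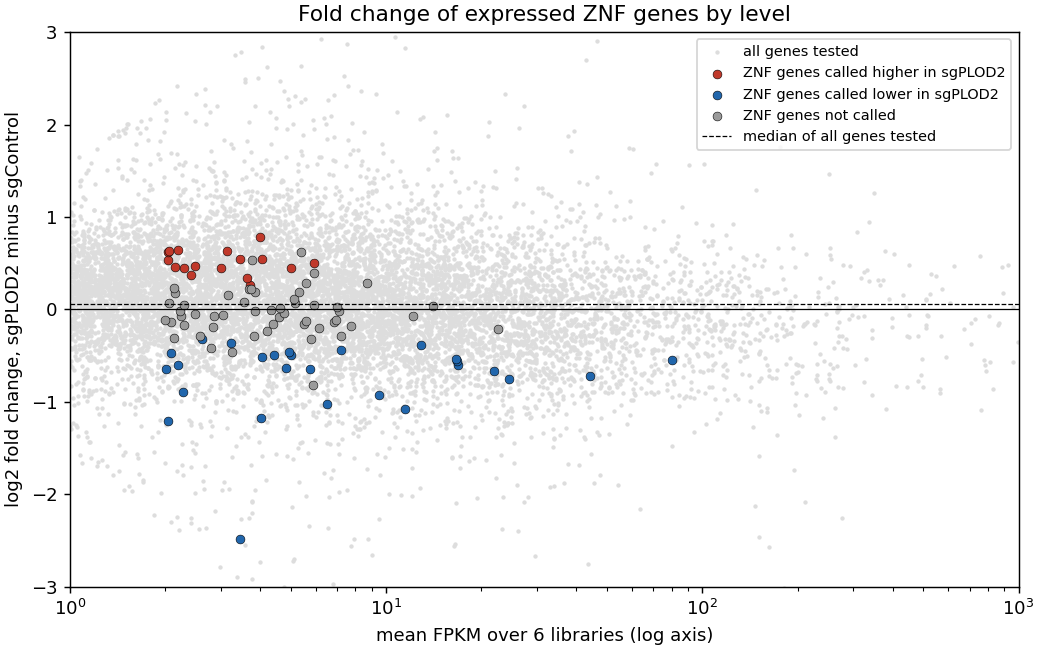
Log2 fold change (sgPLOD2 minus sgControl, on log2(FPKM + 1)) against the mean FPKM over 6 libraries (log axis). Coloured points are the 97 expressed ZNF genes, and grey dots are the genes tested, of which 54 lie outside the axes. None of the 12 ZNF genes at 10 FPKM or more was called higher, and the 17 called higher all lie below 10 FPKM.

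The 2 most abundant ZNF mRNAs encode proteins of ribosome assembly, and both fell. ZNF593, whose yeast counterpart Bud20 takes part in export of the large ribosomal subunit, had the highest mean of the 97 genes, with 72.2, 59.6 and 63.5 FPKM in sgPLOD2, against 96.4, 86.2 and 104 FPKM in sgControl. Its log2 fold change was -0.55 ± 0.11 (SE, adjusted p = 0.00506). ZNF622, whose yeast counterpart Rei1 acts in a late step of large subunit maturation in the cytoplasm, had 34.0, 31.8 and 32.4 FPKM in sgPLOD2, against 43.6, 57.7 and 64.2 FPKM in sgControl. Its groups did not overlap either, and its log2 fold change was -0.72 ± 0.14 (adjusted p = 0.00503). ZNF598, an E3 ubiquitin ligase that senses collided ribosomes, had 13.3, 12.6 and 13.7 FPKM in sgPLOD2, against 20.6, 21.0 and 20.1 FPKM in sgControl. In all 3 of these genes every sgPLOD2 library was below every sgControl library. ZNF598 was added for its role after its values were seen, so the shared direction is a description. The same held for 9 of the 12 ZNF genes at 10 FPKM or more, and for 1363 of 3636 genes tested at that level. ZNF598 fell by 0.61 on the log2 scale (adjusted p = 0.000747). With the GC and length trend removed, ZNF593 (log2 fold change -0.22, adjusted p = 0.133) and ZNF598 (-0.20, adjusted p = 0.0681) were not called, while ZNF622 was (-0.78, adjusted p = 0.00434). ZNF598 had -0.36 (adjusted p = 0.00761) with chromosome medians removed.

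The other members of the 5 most abundant were ZNF768, ZNF358 and ZNF787. ZNF768, a C2H2 protein with 10 fingers, had 18.7, 17.0 and 18.1 FPKM in sgPLOD2, against 33.5, 28.8 and 30.4 FPKM in sgControl, and fell by 0.75 ± 0.09 (SE, adjusted p = 0.000588). ZNF358, with 9 fingers, had 16.7, 15.1 and 17.8 FPKM in sgPLOD2, against 33.1, 22.2 and 26.2 FPKM in sgControl. Its groups did not overlap, and its log2 fold change was -0.67 (adjusted p = 0.00819), or -0.17 (adjusted p = 0.391) once the GC and length trend was taken out. ZNF787 had 20.5, 19.7 and 22.4 FPKM in sgPLOD2, against 26.1, 22.4 and 24.6 FPKM in sgControl, and did not pass (log2 fold change -0.21, adjusted p = 0.0914). Its groups met at 22.4 FPKM.

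The largest fall was that of ZNF185, which encodes an actin-associated LIM-domain protein and is not a C2H2 transcription factor. It had 0.314, 0.385 and 0.315 FPKM in sgPLOD2, against 5.02, 7.85 and 6.88 FPKM in sgControl. Its mean in sgPLOD2 was 5.14% of that in sgControl, and its log2 fold change was -2.48 ± 0.15 (SE, adjusted p = 2.58e-05). The authors' deposited table gave -4.37 for the same gene, on a scale without the pseudocount, and with a pseudocount of 0.1 limma gave ZNF185 -3.91. ZNF185 lies on the X chromosome (GRCh38, 152914442 to 152973480, plus strand), and 14 tested genes of other families within 1 Mb had a median log2 fold change of -0.81.

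Another 4 ZNF genes had a log2 fold change of at least 1 in size, and all 4 were falls. ZNF513, mutated in a form of retinitis pigmentosa, had 0.831, 0.869 and 0.741 FPKM in sgPLOD2, against 4.25, 3.08 and 2.46 FPKM in sgControl (log2 fold change -1.21 ± 0.15, adjusted p = 0.000773). ZNF296, a partner of pluripotency factors in mice, had 1.83, 1.89 and 2.52 FPKM in sgPLOD2, against 7.01, 6.02 and 4.88 FPKM in sgControl (log2 fold change -1.17, adjusted p = 0.000707). In neither gene did the groups overlap. ZNF511 had 7.90, 6.34 and 6.80 FPKM in sgPLOD2, against 15.2, 13.7 and 19.1 FPKM in sgControl (log2 fold change -1.08, adjusted p = 0.000820). ZNF775 had 3.90, 3.93 and 3.94 FPKM in sgPLOD2, against 9.88, 8.35 and 8.90 FPKM in sgControl, and its log2 fold change of -1.03 had an adjusted p of 0.000167. With the GC and length trend removed all 4 were still called but none reached 1 in size: the log2 fold changes were -0.80 for ZNF513, -0.67 for ZNF296, -0.87 for ZNF511 and -0.50 for ZNF775. With a pseudocount of 0.1 that of ZNF513 was -1.85. Exons of ZNF513 overlap those of SNX17 on the opposite strand, and exons of ZNF511 those of TUBGCP2 on the opposite strand. Whether the counting used strand is not given in the sources used here, so reads of such pairs may have been shared. Of the 14 ZNF genes with an exon overlapping that of a gene at 1 FPKM or more, 1 was called higher (7.14%) and 6 lower (42.9%). Among the other 83, 16 were higher (19.3%) and 21 lower (25.3%). The shares of all genes tested at 2 FPKM or more were 28.0% and 25.5%. Whether shared reads had a part in these counts was not tested.

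The rest of the 12 largest falls were smaller. ZNF672 had 4.90, 4.70 and 9.82 FPKM in sgPLOD2, against 12.1, 12.6 and 12.9 FPKM in sgControl, so that sgPLOD2 replicate 3 stood nearer to sgControl than the other two. Its log2 fold change was -0.92 ± 0.24 (SE, adjusted p = 0.0149), and without sgPLOD2 replicate 2 it was -0.76 (adjusted p = 0.0522). ZNF783, the KRAB-like gene with the largest fall, averaged 1.29 ± 0.0331 FPKM in sgPLOD2 and 3.28 ± 0.742 FPKM in sgControl (log2 fold change -0.89, adjusted p = 0.00180). ZNF692 averaged 1.35 ± 0.0646 FPKM in sgPLOD2 and 2.69 ± 0.237 FPKM in sgControl (log2 fold change -0.65, adjusted p = 0.000997), or -0.39 (adjusted p = 0.0100) once the GC and length trend was taken out. ZNF335, a gene mutated in a form of microcephaly, averaged 4.25 ± 0.308 FPKM in sgPLOD2 and 7.20 ± 0.584 FPKM in sgControl, and fell by 0.64 on the log2 scale (adjusted p = 0.00148). The other 15 called falls, chosen here after their values were seen, ran from -0.63 to -0.32 on the log2 scale and were ZNF668, ZNF653, ZNF598, ZNF282, ZNF593, ZNF428, ZNF394, ZNF687, ZNF319, ZNF587B, ZNF32, ZNF579, ZNF777, ZNF275 and ZNF764. ZNF282 is known for binding the long terminal repeat of the retrovirus HTLV-1.

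The rises were smaller than the largest falls, and none reached 1 on the log2 scale. ZNF106, an RNA-binding protein linked to splicing, had the largest, with 4.49, 5.84 and 5.61 FPKM in sgPLOD2, against 2.34, 3.38 and 2.34 FPKM in sgControl. Its log2 fold change was 0.78 ± 0.14 (SE, adjusted p = 0.00380). ZNF318, which in mice is needed for the splicing that yields IgD, had 2.59, 3.32 and 2.79 FPKM in sgPLOD2, against 1.25, 1.70 and 1.54 FPKM in sgControl. The log2 fold change of ZNF318 was 0.64 (adjusted p = 0.00300). ZNF473, a component of the U7 snRNP machinery that processes histone pre-mRNA, had 2.84, 2.85 and 2.46 FPKM in sgPLOD2, against 1.36, 1.43 and 1.40 FPKM in sgControl, and a log2 fold change of 0.63 (adjusted p = 0.000982). ZNF326, a subunit of the DBIRD complex that links transcript elongation to splicing, had 2.47, 2.65 and 2.67 FPKM in sgPLOD2, against 1.47, 1.57 and 1.40 FPKM in sgControl (log2 fold change 0.53, adjusted p = 0.00158). These 4 genes, all with known roles in RNA processing, were picked out of the 12 largest rises for those roles, so their shared direction is a description. In sgControl, ZNF318, ZNF473 and ZNF326 averaged below 2 FPKM, so they passed the limit of 2 FPKM only through sgPLOD2. With such sgControl levels, only a higher sgPLOD2 level could admit them, so the limit itself favoured their direction. ZNF106 was above the limit in both groups. Once the GC and length trend was taken out, ZNF318 had a log2 fold change of 0.39 (adjusted p = 0.0262) and ZNF326 one of 0.27 (adjusted p = 0.0306). ZNF473 lies on chromosome 19, and its exons overlap those of VRK3 on the opposite strand.

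Of the other large rises, ZNF609 and ZNF608 are paralogs, and ZNF609 is best known for its circular RNA. ZNF609 had 3.69, 4.13 and 4.17 FPKM in sgPLOD2, against 1.68, 3.07 and 2.08 FPKM in sgControl (log2 fold change 0.63 ± 0.16, adjusted p = 0.0131). ZNF608 had 4.43, 5.49 and 5.07 FPKM in sgPLOD2, against 2.72, 3.69 and 2.93 FPKM in sgControl (log2 fold change 0.55 ± 0.12, adjusted p = 0.00821). Neither gene had overlapping groups. ZNF503, a repressor of the NET family, averaged 7.09 ± 0.922 FPKM in sgPLOD2 and 4.70 ± 0.595 FPKM in sgControl (adjusted p = 0.0115). Its family relative ZNF703 averaged 4.44 ± 0.639 FPKM in sgPLOD2 and 4.76 ± 0.565 FPKM in sgControl and was not called (log2 fold change -0.08, adjusted p = 0.587). ZNF202, a SCAN and KRAB repressor of lipid metabolism genes, averaged 3.06 ± 0.331 FPKM in sgPLOD2 and 1.93 ± 0.103 FPKM in sgControl (adjusted p = 0.00565). ZNF76, a paralog of the promoter-binding activator ZNF143, had 4.19, 4.26 and 4.44 FPKM in sgPLOD2, against 2.59, 2.61 and 2.68 FPKM in sgControl. Both groups of ZNF76 spread little (log2 fold change 0.55 ± 0.08, adjusted p = 0.00131). ZNF800, ZNF770 and ZNF436 completed the 12, with log2 fold changes of 0.62, 0.46 and 0.45. Their sgControl means were 1.40, 1.66 and 1.78 FPKM. Like ZNF202, they passed the limit of 2 FPKM only through sgPLOD2. Once the GC and length trend was taken out, ZNF609, ZNF800, ZNF608, ZNF770 and ZNF436 were no longer called (adjusted p of 0.0867, 0.0539, 0.150, 0.559 and 0.882). After quantile normalization ZNF202 had a log2 fold change of 0.30 (adjusted p = 0.0314), while ZNF770 (adjusted p = 0.0750) and ZNF436 (adjusted p = 0.0549) were not called.

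**Figure D2:**
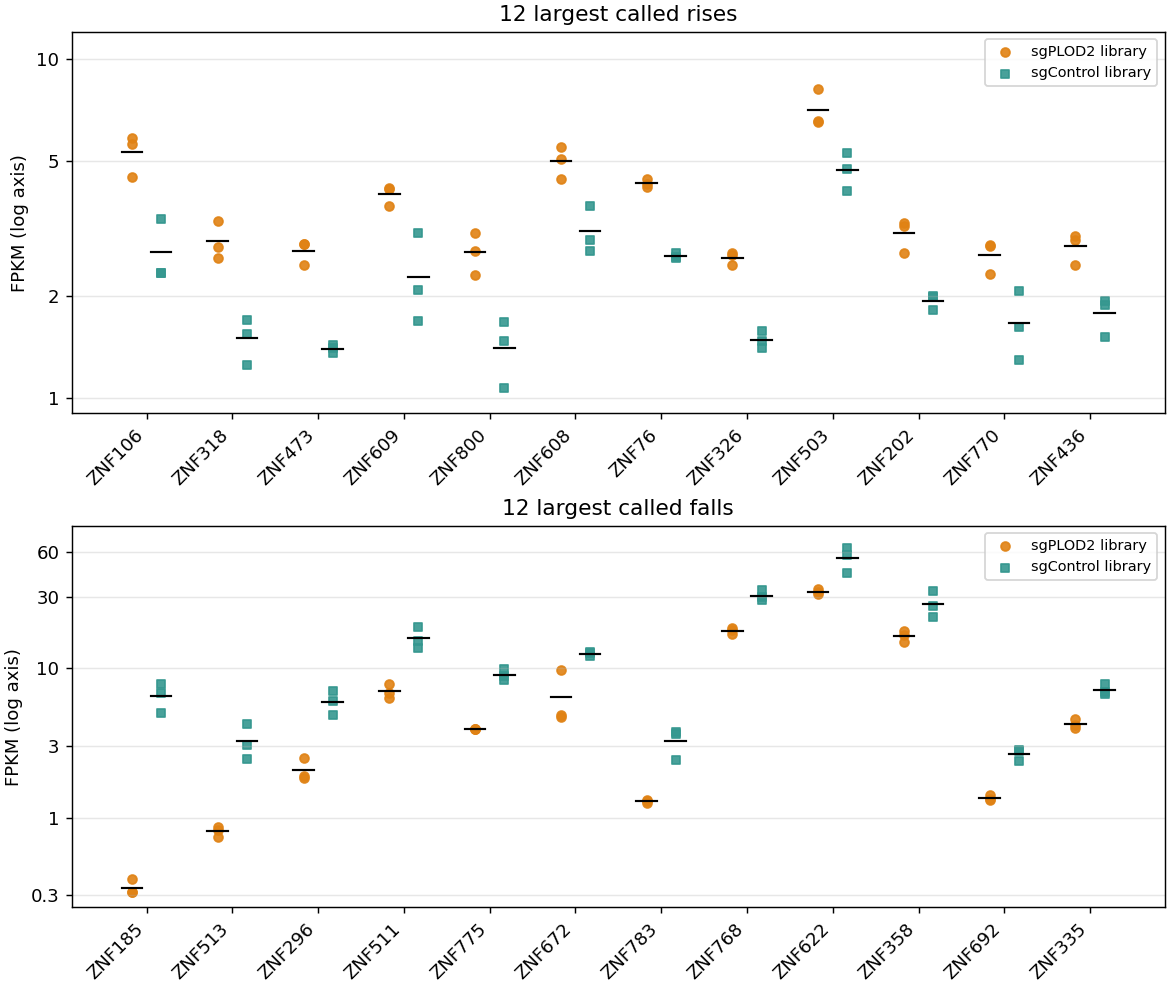
FPKM per library (log axis) of the 12 called ZNF genes with the largest rises (top) and of the 12 with the largest falls (bottom). Circles are sgPLOD2 libraries, squares sgControl libraries, and bars the mean of 3 libraries. In each gene all sgPLOD2 libraries lie on the same side of all sgControl libraries, and ZNF185 shows the widest gap.

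The other 5 called rises, chosen after their values were seen, were ZNF410, ZNF516, ZNF134, ZNF623 and ZNF592, with log2 fold changes of 0.26 to 0.45. ZNF410, whose known target is the NuRD helicase gene CHD4, had 6.65, 6.42 and 4.79 FPKM in sgPLOD2, against 4.37, 4.20 and 3.60 FPKM in sgControl (adjusted p = 0.0246). CHD4 averaged 17.8 ± 1.09 FPKM in sgPLOD2 and 13.7 ± 5.00 FPKM in sgControl and did not pass (adjusted p = 0.194). ZNF592 and ZNF687 are partners of ZMYND8 in the same chromatin complex, and limma called them in opposite directions. ZNF592 averaged 4.15 ± 0.258 FPKM in sgPLOD2 and 3.29 ± 0.267 FPKM in sgControl (log2 fold change 0.26, adjusted p = 0.0451), and ZNF687 averaged 4.02 ± 0.979 FPKM in sgPLOD2 and 5.98 ± 0.293 FPKM in sgControl (log2 fold change -0.49, adjusted p = 0.0283). In the authors' deposited table ZNF592 was not under 0.05 (0.24, adjusted p = 0.191), while ZNF687 was (-0.66, adjusted p = 0.00633). Exons of ZNF687 overlap those of PI4KB on the opposite strand.

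The 53 ZNF genes that did not pass had log2 fold changes between -0.81 and 0.62 and a median SE of 0.12. For 10 of them the groups did not overlap, and 6 had an unadjusted p under 0.05. In some of them the spread within a group was too wide for a difference to be detectable. ZNF146, which is almost only a row of fingers, had 8.26, 2.70 and 9.99 FPKM in sgPLOD2, against 2.83, 4.73 and 3.70 FPKM in sgControl. ZNF664 had 3.82, 3.24 and 2.34 FPKM in sgPLOD2, against 8.05, 2.57 and 2.84 FPKM in sgControl, the high value being sgControl replicate 1. Genes studied in cancer were also among those not called. ZNF217, an oncogene of breast tumours, averaged 5.69 ± 0.730 FPKM in sgPLOD2 and 4.92 ± 1.13 FPKM in sgControl (adjusted p = 0.341). ZNF395, known to be induced by hypoxia, averaged 14.1 ± 0.405 FPKM in sgPLOD2 and 14.0 ± 3.23 FPKM in sgControl (adjusted p = 0.858).

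By domain, 3 of the 25 ZNF genes with a KRAB-like stretch were higher in sgPLOD2 and 6 were lower, and of the 72 without one 14 were higher and 21 lower. In shares, 12% and 24% of the KRAB-like genes and 19.4% and 29.2% of the others were called, against 28.0% and 25.5% of all genes tested at 2 FPKM or more. The medians of the log2 fold change were -0.07 and -0.10, and with every library set to the same total they were 0.02 and 0.01. The KRAB-like genes that rose were ZNF473, ZNF202 and ZNF436, and those that fell were ZNF783, ZNF282, ZNF394, ZNF587B, ZNF777 and ZNF764. The 3 that rose averaged 1.40, 1.93 and 1.78 FPKM in sgControl, so they passed the limit of 2 FPKM only through sgPLOD2. ZNF783 and ZNF587B averaged 1.29 and 1.58 FPKM in sgPLOD2 and passed it only through sgControl. The counts by domain rest in part on such genes. No test of the difference between these classes was run.

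Genes of the machinery that KRAB proteins recruit are not ZNF genes, and 29 of them were found in the table, 28 of which were tested. Of these 28, 9 were higher in sgPLOD2 (32.1%) and 1 was lower (3.57%), with a median log2 fold change of 0.18. The share of rises was near the 29.5% of all genes tested, of which 23.5% were lower, and their median was 0.06. Under 3 other scalings, without sgControl replicate 1 and after removal of chromosome medians or of the GC and length trend, 8 to 11 were higher and 0 to 2 lower. The histone deacetylase gene HDAC2 averaged 5.70 ± 0.216 FPKM in sgPLOD2 and 3.24 ± 0.212 FPKM in sgControl (log2 fold change 0.66). ATF7IP, the partner of SETDB1, averaged 2.48 ± 0.312 FPKM in sgPLOD2 and 0.974 ± 0.150 FPKM in sgControl (log2 fold change 0.82), and TASOR, a subunit of the HUSH silencing complex, averaged 3.63 ± 0.720 FPKM in sgPLOD2 and 1.24 ± 0.209 FPKM in sgControl (log2 fold change 1.04). All genes of the HP1 family rose: CBX1 had a log2 fold change of 0.53, CBX3 of 0.49 and CBX5 of 1.07. MORC2, an ATPase that works with HUSH, was the gene that fell (log2 fold change -0.45, adjusted p = 0.00414). TRIM28 itself averaged 93.2 ± 9.64 FPKM in sgPLOD2 and 89.2 ± 11.1 FPKM in sgControl (adjusted p = 0.671), and SETDB1 averaged 2.65 ± 0.257 FPKM in sgPLOD2 and 3.12 ± 0.526 FPKM in sgControl (adjusted p = 0.284). Neither passed the test. Of 13 genes derived from or associated with endogenous retroviruses, 5 were listed at 0 in every library and the 1 that was tested, ERVK3-1, did not pass (6.83 ± 0.489 FPKM in sgPLOD2 and 6.60 ± 0.503 FPKM in sgControl). ERVMER34-1 was below the limit for testing, and its values, which differed between the groups, are given under the other observations. Of 8 tested genes for DNA methylation enzymes and readers, TET3 rose (log2 fold change 0.90) and MBD2 fell (log2 fold change -0.37).

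Along the chromosomes, the calls of ZNF genes were unevenly spread, and so were those of other genes. On chromosome 19, 2 of 25 ZNF genes were higher and 6 lower in sgPLOD2, while 11.8% of the 591 tested genes of other families there were higher and 36.4% lower. On chromosome 16, 0 of 12 ZNF genes were higher and 5 lower, with 13.1% of the other genes higher and 44.8% lower. Chromosome 15 went the other way, with 4 of 5 ZNF genes higher (ZNF106, ZNF609, ZNF770 and ZNF592) and 0 lower, while 28.3% of its other genes were higher and 17.3% lower. On chromosome 6, where 50.7% of the other genes were higher, both ZNF genes, ZNF76 and ZNF318, were higher. With each chromosome's median fold change removed, ZNF76 (log2 fold change 0.20, adjusted p = 0.0718) and ZNF318 (0.30, adjusted p = 0.0641) were not called. On chromosome 14, which carries HIF1A, 67.6% of the other genes were higher, and so was its single expressed ZNF gene, ZNF410. With chromosome medians removed, 15 ZNF genes were higher and 24 lower over the genome (22.9% and 24.3% of all genes tested), including 11 of the 17 rises and 22 of the 27 falls called without that step. The median of the ZNF genes then lay 0.04 below that of all genes, against 0.14 without it.

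Of the 97 ZNF genes, 87 had at least 5 tested genes of other families within 1 Mb. The neighbours' median log2 fold change was below the all-gene median for 23 of the 24 falling ZNF genes with such neighbours, for 7 of the 13 rising ones and for 43 of the 50 not called. Spearman's rho between a ZNF gene's fold change and its neighbours' median was 0.42 over these 87 genes, a description without a p, since neighbouring genes share libraries and some of the same neighbours.

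**Figure D3:**
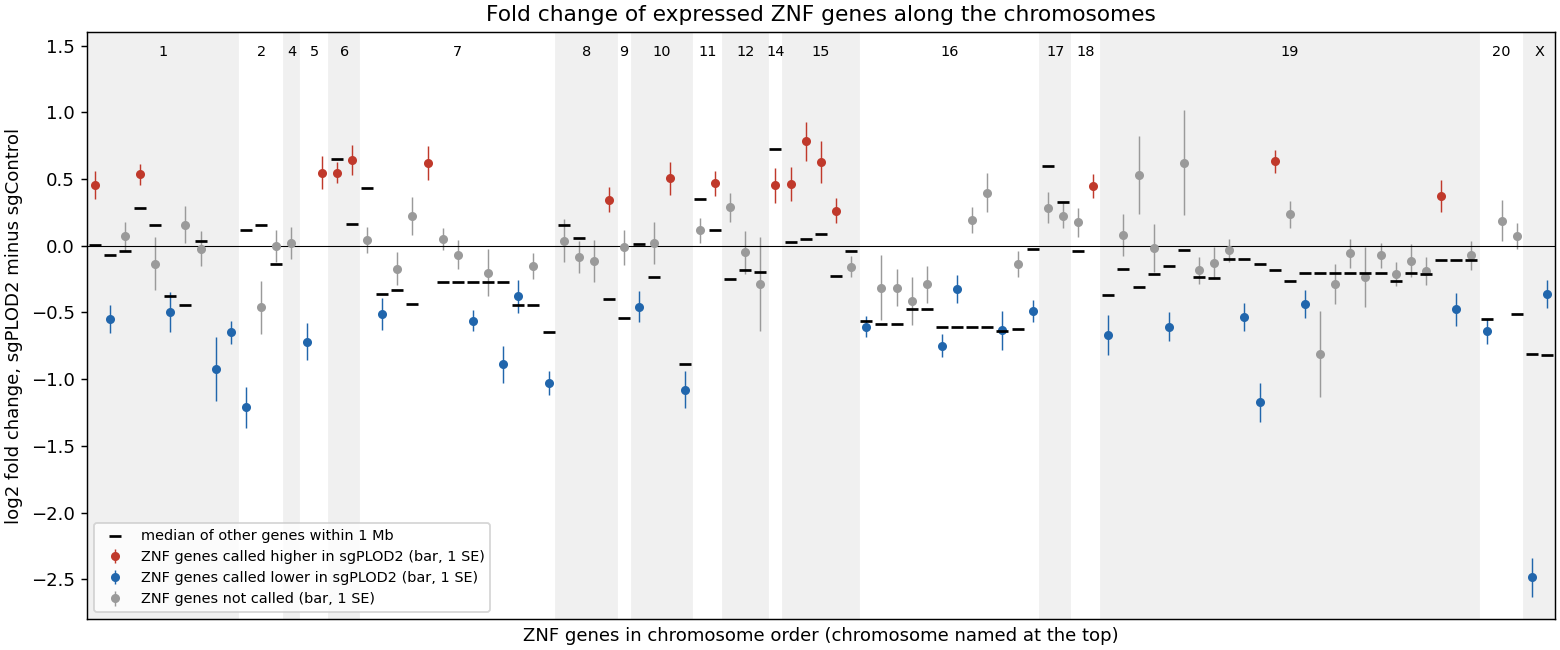
Log2 fold change (sgPLOD2 minus sgControl) of the 97 expressed ZNF genes in chromosome order, coloured by call, with bars of 1 SE. Black dashes are the median of tested genes of other families within 1 Mb. On chromosome 16 the dashes lie below 0 for every ZNF gene, and on chromosome 6 both ZNF genes are red.

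In 4 runs the ZNF genes lay close together, with starts at most 500 kb apart and at least 4 genes in each, and 0 ZNF genes in these runs were called higher. In the run of 9 on chromosome 19 (GRCh38, starts from 55576774 to 56595300), all 9 fold changes were negative, with a median of -0.21, but ZNF579 alone was called. Of 19 tested genes of other families in this run or up to 1 Mb on either side, 6 were lower and 2 higher. Their median log2 fold change was also -0.21. With every library set to the same total 7 of the 9 ZNF genes were negative, and once the GC and length trend was taken out 3 were. ZNF524 had the largest value of that run, with 3.81, 4.65 and 2.94 FPKM in sgPLOD2, against 11.1, 3.92 and 8.74 FPKM in sgControl. Its log2 fold change of -0.81 did not pass (adjusted p = 0.0689), and it turned on single libraries: without sgControl replicate 2, the low library, it was -1.19 (adjusted p = 0.00300), and without sgControl replicate 1, the high one, -0.54 (adjusted p = 0.162). With the GC and length trend removed it was -0.32 (adjusted p = 0.456). The authors' deposited table gave ZNF524 -1.16 (adjusted p = 0.00248). In the run of 4 on chromosome 16 (starts from 3112560 to 3401215) none was called in the main limma fit and all 4 were negative, ZNF263 most (log2 fold change -0.41, adjusted p = 0.0905). After quantile normalization 3 of the 4 were called lower. The authors' deposited table gave ZNF263 -0.70 (adjusted p = 0.0118) and ZNF213 -0.58 (adjusted p = 0.0191). There ZNF205 and ZNF174 were not under 0.05 (adjusted p of 0.139 and 0.0849). Of 41 tested genes of other families in this run or up to 1 Mb on either side, 28 were lower and 3 higher. Without sgControl replicate 1, ZNF263 had a log2 fold change of -0.59 (adjusted p = 0.0120), and without sgControl replicate 2 one of -0.22 (adjusted p = 0.185). In the run of 7 on chromosome 7 (starts from 149069641 to 149472696), ZNF783, ZNF282 and ZNF777 fell. Of 10 tested genes of other families in this run or up to 1 Mb on either side, 7 were lower and 0 higher. With the GC and length trend removed ZNF783 alone was called (-0.78, adjusted p = 0.00384), with ZNF282 at -0.19 (adjusted p = 0.0852) and ZNF777 at -0.27 (adjusted p = 0.114). With every library set to the same total, ZNF777 had -0.26 (adjusted p = 0.0800) and was not called.

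The second run on chromosome 16 held 6 ZNF genes with starts from 30524004 to 31074422, of which ZNF768, ZNF764 and ZNF668 fell. ZNF764 averaged 2.21 ± 0.239 FPKM in sgPLOD2 and 3.02 ± 0.320 FPKM in sgControl (SD, n = 3 each, no overlap; log2 fold change -0.32, adjusted p = 0.0323), and ZNF668 had 3.15, 3.19 and 4.39 FPKM in sgPLOD2, against 7.21, 5.83 and 5.25 FPKM in sgControl (log2 fold change -0.63, adjusted p = 0.0102). In the same run ZNF629 had 6.36, 6.88 and 7.26 FPKM in sgPLOD2, against 3.80, 5.92 and 5.30 FPKM in sgControl, all higher in sgPLOD2 but without passing (log2 fold change 0.40, adjusted p = 0.0532). ZNF689 also had all sgPLOD2 libraries above all sgControl libraries and did not pass (log2 fold change 0.19, adjusted p = 0.131). Of 46 tested genes of other families in the run or up to 1 Mb on either side, 32 were lower and 3 higher. Their median log2 fold change was -0.61. With chromosome medians removed, 1 of the 6 ZNF genes was called lower and 2 higher, and ZNF768 had a log2 fold change of -0.50 (adjusted p = 0.00361). The promoters of the 3 genes that fell are shown because these genes lie in one run and were all called lower, in a run where not all genes fell. Each sequence is 300 bases long, from 250 bases before to 50 bases after the RefSeq gene start (GRCh38.p14), on the gene's strand, with CpG dinucleotides in capitals. They lie at chr16:30526517-30526816 (ZNF768), chr16:30558325-30558624 (ZNF764) and chr16:31074191-31074490 (ZNF668), all on the minus strand.
ZNF768 promoter: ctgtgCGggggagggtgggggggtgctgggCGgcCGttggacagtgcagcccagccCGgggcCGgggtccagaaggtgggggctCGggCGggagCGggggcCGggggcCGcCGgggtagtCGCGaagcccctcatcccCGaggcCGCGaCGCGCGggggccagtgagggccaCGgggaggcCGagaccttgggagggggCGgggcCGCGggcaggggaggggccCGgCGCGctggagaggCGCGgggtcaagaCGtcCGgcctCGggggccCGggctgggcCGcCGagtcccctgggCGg
ZNF764 promoter: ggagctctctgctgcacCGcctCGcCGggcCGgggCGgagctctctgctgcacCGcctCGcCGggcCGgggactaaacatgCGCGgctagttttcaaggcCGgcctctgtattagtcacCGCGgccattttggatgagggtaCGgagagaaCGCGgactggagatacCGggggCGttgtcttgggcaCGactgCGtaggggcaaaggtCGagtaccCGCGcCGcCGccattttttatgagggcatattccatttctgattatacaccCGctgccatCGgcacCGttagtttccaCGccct
ZNF668 promoter: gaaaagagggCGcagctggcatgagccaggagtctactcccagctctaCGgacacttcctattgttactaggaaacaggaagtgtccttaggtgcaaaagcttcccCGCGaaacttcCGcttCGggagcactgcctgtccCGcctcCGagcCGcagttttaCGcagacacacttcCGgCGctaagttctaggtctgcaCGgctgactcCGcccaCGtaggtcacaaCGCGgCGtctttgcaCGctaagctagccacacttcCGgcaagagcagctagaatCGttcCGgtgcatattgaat
These windows held 36, 30 and 22 CpG dinucleotides, against a median of 27 in the promoters of tested genes and 14 in all promoters of the table. The window of ZNF668 shares 281 bases with that of ZNF646, which starts on the opposite strand. ZNF646 averaged 1.94 ± 0.222 FPKM in sgPLOD2 and 2.23 ± 0.174 FPKM in sgControl and was not called (adjusted p = 0.257), so the shared window belongs to a gene that was called and to one that was not.

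RefSeq promoters were matched for 85 of the 97 ZNF genes, and 3 short motifs were searched in them on both strands. The ETS-type motif CCGGAAG was present in 32 of the 85 (37.6%), against 21.3% of the promoters of tested genes and 10.3% of all promoters. It was found in 5 of 14 promoters of rising ZNF genes (35.7%) and in 10 of 25 of falling ones (40%), among them that of ZNF668. The YY1-type motif AAGATGGCG occurred in 2.35% of ZNF promoters and 4.47% of those of tested genes. The motif TATAAA was present in 3.53% of ZNF promoters and 5.05% of those of tested genes. The motifs were searched separately, and a match describes these letters only.

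GC content of the transcripts moved with the direction of change. Median GC content was 50.3% in the 17 ZNF genes that rose, 61.3% in the 27 that fell and 55.9% in the others. In all genes tested the medians were 46.7% for rises and 57.3% for falls, so the same order held outside the family. Spearman's rho between fold change and GC content was -0.51 over the 97 ZNF genes and -0.35 over 10457 tested genes with a known value, and between fold change and transcript length it was 0.04 over the ZNF genes. These are descriptions across genes, which share the same 6 libraries, and carry no p. Once the GC and length trend was taken out, 15 ZNF genes were higher and 22 lower (21.8% and 23.2% of all genes tested), including 9 of the 17 rises and 19 of the 27 falls. ZNF444, on chromosome 19, changed direction in that fit, with a log2 fold change of 0.40 (adjusted p = 0.0365) in place of -0.11 (adjusted p = 0.471).

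**Figure D4:**
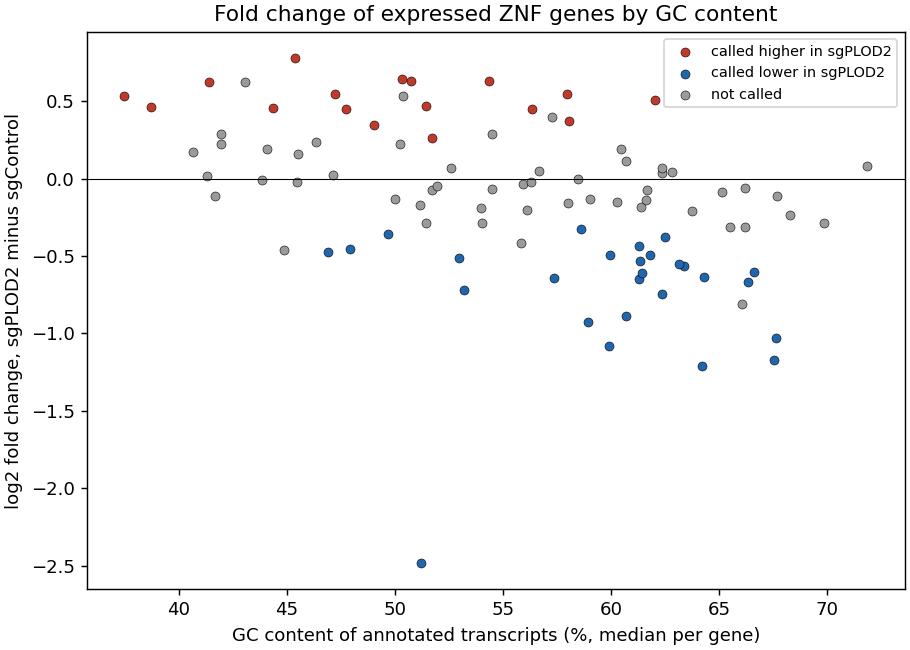
Log2 fold change (sgPLOD2 minus sgControl) of the 97 expressed ZNF genes against the GC content of their annotated transcripts (percent, median per gene), coloured by call. Genes called higher have a median GC content of 50.3% and genes called lower one of 61.3%, and ZNF185 lies apart at the bottom.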

How the data were processed

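RNA-seq of 786-O cells was deposited by the authors as FPKM per gene and library, per the file headers, for 3 sgPLOD2 and 3 sgControl libraries. The submitters' processing notes name CASAVA, HISAT2 2.1.0, StringTie 1.3.4 and the build GRCh38 but give them no role. For counting and strand, no setting is given in the sources used here. Absolute depth per library is unknown, so no counting interval is given, and a gene at 0 is described as listed at 0, since such an estimate can have failed. The authors' deposited table also held their own comparison, with a mean normalized count per gene (a signal value), the fold change as log2, a standard error, p-values and a score, per the file headers. The values copied from it are named as such, and its tool is not given in the sources used here.

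The test was limma 3.58.1 (R 4.3.3; lmFit, eBayes with an intensity trend, 2-sided) on log2(FPKM + 1), over the 10469 genes that averaged 1 FPKM or more, with Benjamini-Hochberg adjustment over all of them and a threshold of 0.05. This log2 scale understates the changes of low genes. Fold changes are sgPLOD2 minus sgControl. PLOD2 was also compared by an exact permutation test (scipy 1.17.1). The fit was tested on simulated data. The 97 genes, the lists and the alternatives were chosen with earlier results of these data known. The genes named were the 12 largest called changes in each direction, the 5 highest means, the 3 genes on each side of the limit, the largest change of each run, up to 4 genes of each list with the smallest adjusted p, TRIM28 and SETDB1. Others were named after their values were seen. A marker that had been listed with those of other cell types is not reported here.

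Chromosomes, exon overlaps, GC content, transcript length and translated sequences came from GENCODE release 29 (GRCh38). All 97 genes were found there, 61 with the same start as in the deposited table, whose coordinates are printed. A KRAB-like stretch was an ungapped BLOSUM62 score of at least 40 against the 41-residue consensus of 215 strict matches, and scores of the 97 genes left a gap between 27 and 57. A finger was a pattern of C, 2 to 4 residues, C, 12 residues, H, 3 to 5 residues, H. Promoters came from RefSeq (GRCh38.p14). Alternatives were pseudocounts of 0.1 and 0.5, no filter and a minimum of 5 FPKM, 3 other scalings, eBayes without trend and robust, a replicate block, removal of chromosome medians, removal of a GC and length trend (mgcv 1.9.3), and leaving out each library.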

Additional observations from a re-analysis of the deposited data

How the results depend on the processing

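With a minimum of 5 FPKM, 38 of the 97 ZNF genes were tested, of which 2 were higher and 14 lower, and on chromosome 19 0 were higher and 3 lower. The all-gene shares of that fit were not counted. In the main fit, 21.2% of all genes tested at 10 FPKM or more were higher and 32.7% lower. At 5 to 10 FPKM those shares were 29.1% and 22.5%. After quantile normalization 11 ZNF genes were higher, and leaving out 1 library at a time gave 12 to 18 higher and 21 to 29 lower. On chromosome 19, 1 ZNF gene in place of 2 was higher with no filter, after quantile normalization or with the replicate block, 5 were higher once the GC and length trend was taken out, and leaving out 1 library gave 1 to 3. ZNF787 had 0.14 (log2 scale) with that trend removed, and ZNF444 had 0.40 with it removed and 0.063 with chromosome medians removed, where both were negative otherwise. The causes were not tested. PLOD2 stayed called under every alternative run. Over the 29 ZNF genes named by rule, 479 of 504 values kept their direction and their side of the threshold, 18 lost the call, 4 gained it and 3 changed sign. ZNF770 lost its call in 7 of its alternatives.

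With the replicate number as a block, 16 ZNF genes were higher and 29 lower, and the shares of all genes in that fit were not counted. Same-numbered libraries had correlations of 0.0135, 0.135 and -0.0491 between their deviations from the group means, and 2 of 6 libraries correlated best with their own number, so the numbers were not taken as pairs. Depth is unknown, and below about 2 FPKM the pseudocount of 1 compresses fold changes.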

Other observations

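Protein-coding ZNF genes just below the limit had more called rises than falls, and their difference from the expressed ones was not tested. Of the 60 that averaged 1 to 2 FPKM, 21 were called higher in sgPLOD2 and 4 lower, with a median log2 fold change of 0.23, while 36.0% of all genes tested at that level were higher and 14.4% lower. After quantile normalization 9 were higher and 9 lower, and once the GC and length trend was taken out 14 were higher and 6 lower. Among the 36 with a KRAB-like stretch, 11 were higher and 1 lower, and among the 24 on chromosome 19, 9 were higher and 0 lower.

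The genes named here were chosen after their values were seen. ZNF362 had 2.73, 2.99 and 2.75 FPKM in sgPLOD2, against 0.0379, 0.0416 and 0.0316 FPKM in sgControl (log2 fold change 1.88, limma adjusted p = 4.93e-06), so that a gene nearly silent in sgControl averaged below 2 FPKM over all libraries. ZNF699 had 2.03, 2.68 and 2.48 FPKM in sgPLOD2, against 0.157, 1.08 and 0.682 FPKM in sgControl (log2 fold change 1.09, limma adjusted p = 0.00448). ZNF827, a protein of telomere chromatin, had 2.60, 3.06 and 2.58 FPKM in sgPLOD2, against 0.721, 1.10 and 0.860 FPKM in sgControl (log2 fold change 0.99). All 3 were without overlap between the groups. The 4 genes that fell were ZNF771, ZNF385A, ZNF618 and ZNF251, with log2 fold changes of -0.74, -0.55, -0.43 and -0.39.

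Among the tested protein-coding genes of other zinc finger families, 26 ZBTB genes had 10 rises and 3 falls (38.5% and 11.5%), 9 ZSCAN genes 4 and 0, 3 ZKSCAN genes 2 and 0, and 4 ZFP genes 1 and 1. Among all genes tested 29.5% were higher and 23.5% lower, and among those at 1 to 2 FPKM 36.0% and 14.4%. The ZBTB genes were not limited to that level, and the highest averaged 11.2 FPKM. The difference between their shares and those of all genes was not tested. In ERVMER34-1, an envelope gene from an endogenous retrovirus below the limit for testing, the FPKM averaged 1.46 ± 0.0984 in sgPLOD2 and 0.0242 ± 0.00526 in sgControl (SD, n = 3 each).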
